A study of Mus musculus with 16 samples.

Results

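Fenretinide, a synthetic retinoid, was compared with its absence in the livers of 16 male C57BL/6J wild-type mice, so as to find the genes that it moved the same way after 20 weeks and after 7 days of feeding. All mice received a high-fat diet (HFD) with 45% fat, and FEN-HFD mice received the same diet with 0.04% fenretinide. There were 4 HFD mice (25, 28, 33 and 45) and 4 FEN-HFD mice (21, 22, 24 and 29) at 20 weeks, and 4 HFD mice (142, 143, 144 and 146) and 4 FEN-HFD mice (61, 62, 65 and 66) at 7 days. All 16 libraries entered 1 fit in which duration was a blocking term, which set the 8 FEN-HFD livers against the 8 HFD livers. A gene was called shared when its fenretinide coefficient had an adjusted p under 0.05 and its fold change had the same sign at both times, and 282 of 13387 genes tested met this. The cohorts at 20 weeks and at 7 days held different mice, so that duration and cohort cannot be told apart, and the age of the mice is not given in the sources used here. No lean or chow-fed livers were analysed here, and the fat-rich diet was common to every group.

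Retinoids act in the nucleus by binding the retinoic acid receptors, which sit with retinoid X receptors on paired half-sites of DNA and turn on genes that include those for retinoic acid breakdown. In the liver, retinol is esterified and stored in stellate cells, carried in blood on retinol-binding protein and transthyretin, and oxidised by short-chain dehydrogenases on the way to retinoic acid. The liver is also a main site of fatty acid synthesis, desaturation and export. Fenretinide is an amide of retinoic acid and can itself act as a ligand or a source of ligand for these receptors.

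Total counts ran from 19218230 to 32546829 per library. FEN-HFD mouse 29 at 20 weeks stood apart, since the ribosomal precursor Rn45s took 53.1% and Lars2 4.36% of its counts, while in the remaining 15 libraries Rn45s took 0.466% to 1.46% and Lars2 0.00173% to 0.0499%. The counts of shared genes are therefore also given without this mouse. Libraries of a group differed from each other by more than counting noise, with a chi-square per degree of freedom of at least 16.8. Albumin, the main protein that hepatocytes secrete, ranged from 28150.4 to 54167 CPM (counts scaled to library size by TMM factors) over the 16 livers. Values by mouse are listed below in the order of mouse numbers given above, and ± beside a log2 fold change is its standard error. Adjusted p-values are from edgeR's quasi-likelihood test with Benjamini-Hochberg adjustment over all 13387 genes.

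Of the shared genes, 132 were higher and 150 were lower with fenretinide. These were 0.986% and 1.12% of the genes tested, and 2.11% together. The counts of shared genes in each list below are to be read beside these shares. No gene passed the threshold with opposite signs at the 2 times. The median log2 fold change of the higher genes was 0.65 over both times, 0.75 at 20 weeks and 0.54 at 7 days, and that of the lower genes was -0.59, -0.77 and -0.43, while the medians over all genes tested were -0.01, 0.01 and -0.02. The effect was larger at 20 weeks for 102 of the 132 higher and 130 of the 150 lower genes. These counts compare point estimates, and the difference between the times passed for 1 of the 282 shared genes. A change of over 2-fold was found for 44 higher and 37 lower genes. FEN-HFD and HFD mice did not overlap at 20 weeks for 107 higher and 122 lower genes, at 7 days for 72 and 61, and at both times for 54 and 44. Over all genes, the groups did not overlap for 12.7% at 20 weeks, for 3.21% at 7 days and, in the same direction, for 0.814% at both times, of which 0.426% lay higher and 0.388% lower. The 12 genes per direction named for the largest changes had to show no overlap at both times. For them a lack of overlap is no added evidence. The higher ones were Cyp26a1, Raet1d, Mup9, Mt2, Mup8, Adam11, Cyp26b1, Cyp2c70, Pisd-ps1, Gpcpd1, Rarb and Gm14420. The lower ones were Elovl5, Hsd17b6, Gabbr2, Rdh9, Osbpl5, Elovl2, Hsd17b13, D130043K22Rik, Mn1, Col5a3, Tmem98 and Ralgps2.

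**Figure D1:**
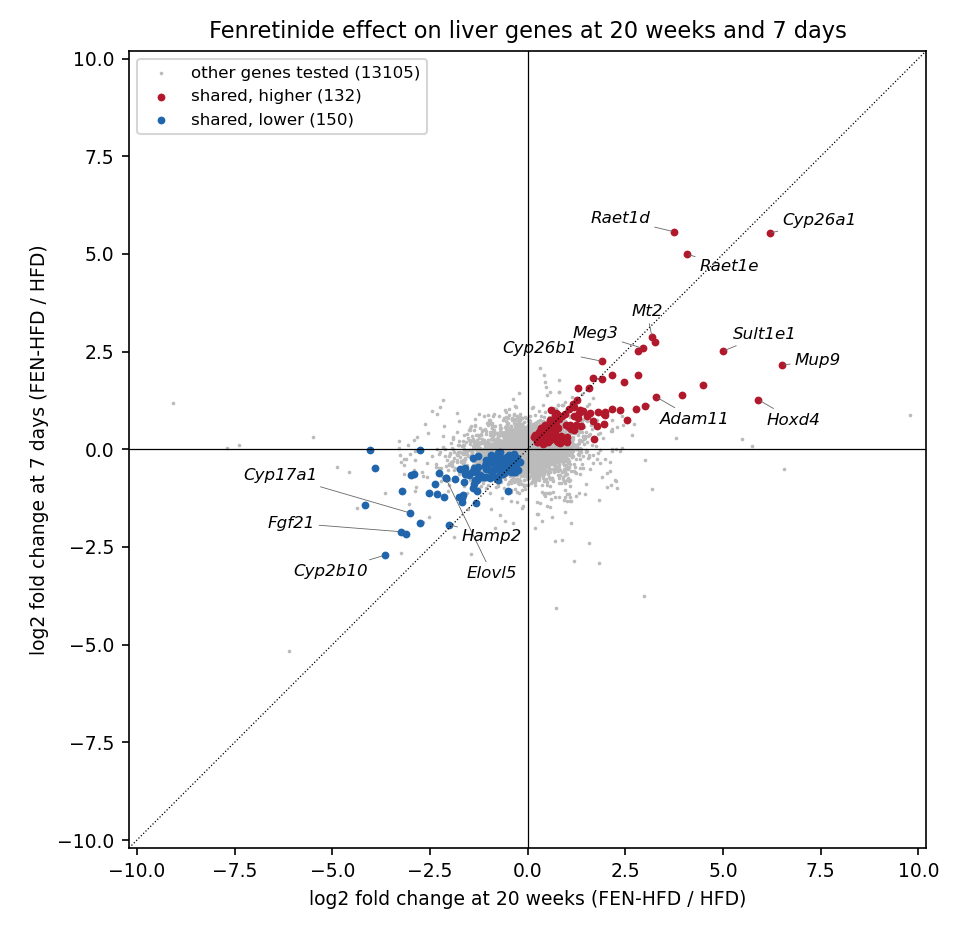
Log2 fold change of FEN-HFD over HFD at 20 weeks (x axis) and at 7 days (y axis) for each of the 13387 genes tested. Red points are the 132 shared higher genes and blue points the 150 shared lower genes, grey points are all others, and the dotted line marks equal effects. Of the 282 coloured points, 232 have the larger effect at 20 weeks, and Raet1d and Raet1e are among those with the larger effect at 7 days.

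Across all genes, 7605 of 13387 (56.8%) had the same sign at both times. The log2 fold changes of the 2 times had a Pearson r of 0.284 and a Spearman rho of 0.189 across genes, which are not independent replicates. The 2 comparisons had no library in common. Within the times, 254 genes (1.9%) were higher and 407 (3.04%) lower at 20 weeks, against 12 (0.0896%) and 2 (0.0149%) at 7 days. Of the 132 shared higher genes, 100 passed at 20 weeks and 12 at 7 days on their own, and of the 150 shared lower genes 113 and 2 did. The counts depended on single mice. They fell by more than 1.5 times to 67 higher and 60 lower genes without mouse 25. Leaving out mouse 21 gave 84 higher and 63 lower genes, mouse 22 gave 83 and 65, mouse 24 gave 85 and 63, and mouse 28 gave 86 and 83. Without mouse 45 there were 85 higher and 105 lower genes, and without mouse 65 there were 97 and 95.

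In all, 12 genes were higher and 1 was lower at each time on its own, 0.0896% and 0.00747% of genes tested. The 12 were Cyp26a1, Cyp26b1, Rarb, Raet1d, Raet1e, Lrat, Trim24, Meg3, Rian, Pisd-ps1, Dclre1a and Gm4952, and the lower one was Mbl2. Some of these 13 met no other rule for being named, and they were taken up after their values were seen. Without single mice, the number of higher genes was 8 to 14, and it fell to 8 without any of mice 21, 22, 61, 65, 142, 144 or 146. The number of lower genes was 0 or 1 in these runs, and 2 without mouse 29.

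Cyp26a1 and Cyp26b1, the hydroxylases that break down retinoic acid, were both higher. Cyp26a1 (chromosome 19, 37697738 to 37701536, GRCm38) was at 5.02, 3.81, 3.83 and 3.96 CPM in HFD mice and 306, 301, 287 and 318 CPM in FEN-HFD mice at 20 weeks. At 7 days it was at 3.20, 7.10, 1.10 and 8.68 CPM in HFD mice and 220.1, 215, 272 and 213 CPM in FEN-HFD mice. No FEN-HFD liver came near any HFD liver, and the lowest FEN-HFD value was that of mouse 66. Cyp26a1 was 57.9-fold higher over both times, a log2 fold change of 5.86 ± 0.33 (adjusted p = 1.78e-07), the largest among the shared genes. The effect was 73.0-fold higher at 20 weeks and 46.2-fold higher at 7 days, and the difference between them did not pass (adjusted p = 0.76). Cyp26b1 (chromosome 6, 84571414 to 84593908) was at 6.87, 2.57, 7.27 and 6.39 CPM in HFD and 20.8, 22.0, 18.3 and 25.8 CPM in FEN-HFD mice at 20 weeks, and at 4.98, 8.27, 2.39 and 4.10 and 21.2, 31.1, 22.2 and 19.8 CPM at 7 days. These groups did not overlap either, and the gene was 4.23-fold higher over both times (log2 2.08 ± 0.23, adjusted p = 0.000233).

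Rarb encodes the retinoic acid receptor beta, a receptor that is itself turned on by retinoic acid, and Trim24 encodes a cofactor that binds retinoic acid receptors. Rarb was at 6.68, 8.19, 5.50 and 4.97 CPM in HFD and 14.1, 12.8, 12.1 and 17.6 CPM in FEN-HFD mice at 20 weeks. The 7-day values were 5.42, 5.35, 6.87 and 6.69 CPM without and 13.6, 13.5, 15.4 and 11.6 CPM with fenretinide. The effect had almost the same size at both times, 2.21-fold higher (log2 1.15 ± 0.16) at 20 weeks and 2.22-fold higher (log2 1.15 ± 0.16) at 7 days. Over both times the adjusted p was 2.21e-05. Trim24 rose to a smaller extent, 1.73-fold higher over both times (log2 0.79 ± 0.08, adjusted p = 6.81e-05), from 30.9, 42.3, 30.4 and 27.5 to 52.1, 54.1, 61.3 and 50.6 CPM at 20 weeks and from 18.5, 22.2, 20.6 and 21.0 to 36.9, 33.2, 42.5 and 35.8 CPM at 7 days. HFD mouse 28 at 20 weeks, at 42.3 CPM, was the HFD liver nearest to the FEN-HFD range. Of the 11 receptors and cofactors tested, these 2 were shared and higher and none was lower, and the median log2 fold change of the list was 0.02.

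Retinoic acid receptors bind pairs of the half-site in the same orientation, most often 5 bases apart. The 300-base RefSeq promoter windows (GRCm38.p6, 250 bases before to 50 after a start site) were searched on both strands for 2 half-sites in the same orientation. A half-site was the canonical AGGTCA, the form AGTTCA that differs at the third letter, the form GGGTCA that differs at the first letter, or the form GGTTCA that differs at both letters, and the 2 half-sites of a pair could differ. With 5 bases between the copies, 2 of the 94 shared higher genes with a window held the motif, which were Cyp26a1 and Rarb, as did 0 of 96 shared lower genes and 3 of 9694 other genes tested (0.0309%). Over all 32851 windows the share was 0.0974%. With 1 or 2 bases between the copies, no window of a shared gene held the motif. The matches are shown with their flanks, 5′ to 3′ on the strand of the gene, with the paired half-sites and the 5 bases between them in capitals, because they are the 2 shared genes with this motif at their start sites.
Cyp26a1: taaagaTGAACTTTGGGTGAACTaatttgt
Rarb: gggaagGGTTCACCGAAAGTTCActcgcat
The Cyp26a1 stretch is chr19:37697770-37697799 on the plus strand, with the motif 32 to 16 bases before the start site of the window. The Rarb stretch is chr14:16575506-16575535 on the minus strand, 53 to 37 bases before the start site. In Cyp26a1 the half-sites read on the opposite strand. Both stretches lie inside the annotated extent of their gene, which begins further upstream than the start site of the window. A match describes these letters and no binding was measured.

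**Figure D2:**
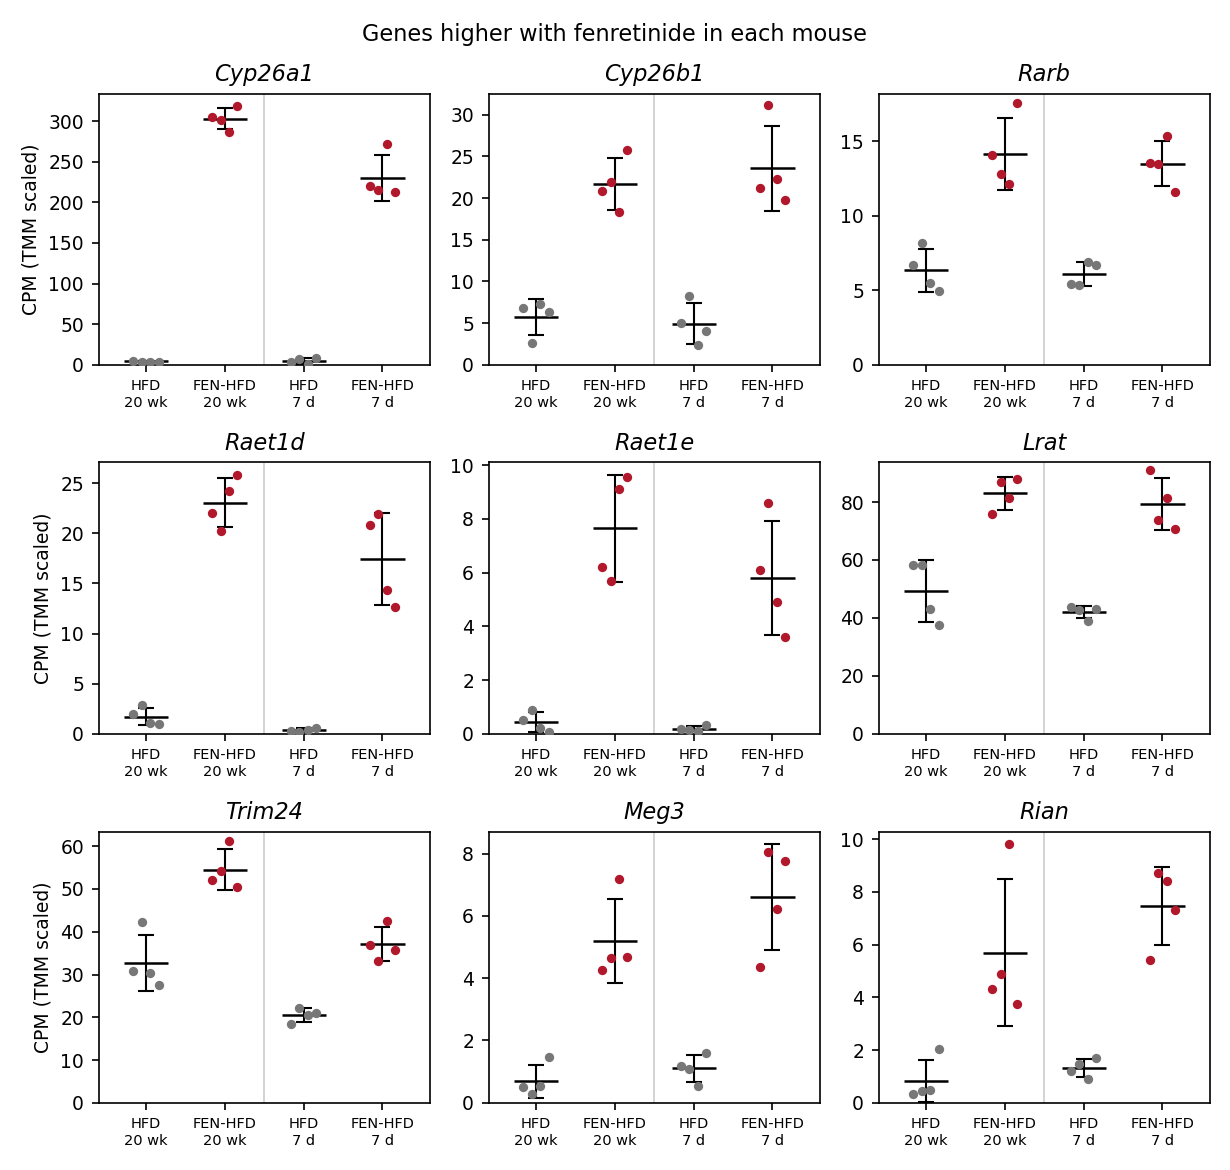
CPM of 9 genes in each of the 16 mice (y axis, linear from 0), by diet and duration (x axis). Points are mice, horizontal lines are means and bars are SD (n = 4). In all 9 genes, the FEN-HFD mice (red) lie above the HFD mice (grey) at each time, with no overlap.

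Raet1d and Raet1e, whose name stands for retinoic acid early transcript and which encode ligands of the NKG2D receptor of natural killer cells, were both higher with fenretinide. Raet1d was at 1.96, 2.82, 1.05 and 0.970 CPM in HFD mice and 22.0, 20.2, 24.2 and 25.8 CPM in FEN-HFD mice at 20 weeks, and at 0.282, 0.191, 0.419 and 0.597 and 20.9, 21.9, 14.3 and 12.7 CPM at 7 days. The change was 13.4-fold higher at 20 weeks and 47.4-fold higher at 7 days, where the HFD mice were lower (adjusted p over both times = 2.05e-06). Raet1e was 22.0-fold higher over both times (log2 4.46 ± 0.35, adjusted p = 2.05e-06), with FEN-HFD livers at 6.21, 5.68, 9.10 and 9.57 CPM at 20 weeks and 6.09, 8.57, 4.90 and 3.6 CPM at 7 days and HFD livers between 0.0808 and 0.899 CPM. Another member, Raet1a, was also shared and higher, at 0.113, 0.620, 0.0327 and 0.0404 CPM without and 2.51, 2.04, 1.66 and 1.98 CPM with fenretinide at 20 weeks and 0.0314, 0.127, 0.0323 and 0.199 and 0.314, 1.12, 0.558 and 0.648 CPM at 7 days (adjusted p = 0.00192), and it was added after its values were seen. Raet1e and Raet1a passed the filter on low counts through the FEN-HFD livers, in which they were high. Raet1d, Raet1e and Raet1a are close copies of each other, and how reads were divided among them is not given in the sources used here.

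Of the 18 genes listed as inducible by retinoic acid, 12 passed the filter on low counts and 7 of these were shared and higher, with none lower. Raet1e passed this filter through the FEN-HFD livers, since most HFD livers lay too low for it. The count of 7 and the median therefore rest in part on a gene kept because it was high with fenretinide. The median log2 fold change of the 12 was 1.14 over both times, 0.97 at 20 weeks and 1.05 at 7 days. Besides those above, Dhrs3, which reduces retinal to retinol, was higher. Dhrs3 was 1.23-fold higher (adjusted p = 0.0379) and its call was lost without any of mice 21, 22, 24, 25, 28, 29, 33, 45, 62, 65, 143 or 146 (adjusted p 0.0504 to 0.0924). The receptor Stra6 and the homeobox gene Cdx1 had no counts, and Cyp26c1, Crabp2 and Hoxa4 were among those below the filter.

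Another homeobox gene, Hoxd4, lay outside the lists and was picked out after its values were seen. It was at 0, 0, 0.0982 and 0.0404 CPM in HFD mice and 3.33, 2.39, 2.21 and 1.35 CPM in FEN-HFD mice at 20 weeks. At 7 days it was at 0.0314, 0.0318, 0 and 0.0398 and 0.0572, 0.112, 0.0929 and 0 CPM, values that overlapped and that correspond to few reads. It met the rule for shared genes, but it passed the filter on low counts through the FEN-HFD group at 20 weeks, and its sign at 7 days rested on a few reads. Mmp9, a gelatinase chosen in the same way, was higher at both times without overlap, at 2.96, 2.27, 2.01 and 6.24 CPM in FEN-HFD against 0.491, 0.620, 0.851 and 0.930 CPM in HFD mice at 20 weeks and 2.80, 3.44, 3.01 and 4.05 against 0.596, 1.30, 0.516 and 1.12 CPM at 7 days. This is 4.09-fold higher over both times (adjusted p = 0.00037).

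Genes of retinol storage, transport and oxidation moved in both directions, with 3 higher and 3 lower of 27 tested and a median log2 fold change of -0.11. Lrat, which esterifies retinol for storage, was at 58.1, 58.4, 43.2 and 37.5 CPM in HFD and 75.8, 86.8, 81.3 and 88.0 CPM in FEN-HFD mice at 20 weeks, and at 43.7, 42.7, 39.0 and 42.9 and 91.0, 74.0, 81.3 and 70.7 CPM at 7 days. The groups were apart at each time, and Lrat was 1.78-fold higher over both times (log2 0.83 ± 0.09, adjusted p = 6.93e-05). Dhrs3, given above, was also higher. Ttr, transthyretin, which carries retinol-binding protein in plasma, was at 6283, 5962, 6653 and 6474 CPM in HFD and 4597, 4899, 4269 and 4497 CPM in FEN-HFD mice at 20 weeks, and at 5867, 5413, 4795 and 6403 and 4126, 4346, 4191 and 4472 CPM at 7 days. Ttr was 1.35-fold lower (log2 -0.43 ± 0.08, adjusted p = 0.00749), again without overlap.

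Rdh9, a retinol and steroid dehydrogenase, and Hsd17b13, a lipid droplet enzyme with reported activity on retinol, were the other lower genes of this list. Rdh9 was at 154, 137, 119 and 95.6 CPM without and 47.6, 54.7, 61.8 and 44.5 CPM with fenretinide at 20 weeks and at 80.9, 95.6, 65.4 and 89.3 and 53.2, 58.1, 50.6 and 50.8 CPM at 7 days, 2.42-fold lower and 1.56-fold lower (adjusted p over both times = 0.000738). For Hsd17b13 the 20-week values were 490.1, 681, 436 and 354 CPM in HFD and 191, 208, 198 and 219.8 CPM in FEN-HFD mice, and the 7-day values 300.4, 264, 391 and 272 and 259, 192, 221 and 223 CPM. The lowest HFD liver at 7 days, mouse 143, stood just above the highest FEN-HFD liver, mouse 61. Hsd17b13 was 2.40-fold lower at 20 weeks and 1.37-fold lower at 7 days (log2 over both times -0.86 ± 0.15, adjusted p = 0.00749). Both calls held in each of the 16 runs that left out 1 mouse.

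Among genes of fatty acid synthesis and desaturation, all that passed in edgeR were lower. Of 20 genes in the synthesis list, 7 were shared and lower and none was higher, and the median log2 fold change was -0.66 over both times, -0.86 at 20 weeks and -0.34 at 7 days. The 7 were Acly, which makes cytosolic acetyl-CoA, Fasn, the fatty acid synthase, Scd1, the main delta-9 desaturase, Elovl5, a fatty acid elongase, Fads1 and Fads2, the desaturases of polyunsaturated fatty acids, and Pklr, the liver pyruvate kinase. Of 17 genes in the list for polyunsaturated fatty acids, 4 were lower (Fads1, Fads2, Elovl2 and Elovl5) and none was higher. The 2 lists share members. With DESeq2 and with limma-voom, 9 genes of the synthesis list were lower and 1 was higher.

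Elovl5 was at 1233, 1574, 953 and 736 CPM in HFD mice and 214, 341, 302 and 189.6 CPM in FEN-HFD mice at 20 weeks. At 7 days it was at 321, 266, 449 and 265 and 216, 196, 183 and 189 CPM. The groups did not overlap at either time, and the HFD livers at 20 weeks were well above those at 7 days. Elovl5 was 4.29-fold lower at 20 weeks and 1.66-fold lower at 7 days (log2 over both times -1.42 ± 0.25, adjusted p = 0.00737). Elovl2, the elongase of longer polyunsaturated chains, was 2.17-fold lower and 1.62-fold lower (adjusted p = 0.00131), with 227, 282, 266 and 176 CPM in FEN-HFD against 583, 496, 499 and 483 CPM in HFD mice at 20 weeks and 349, 283, 321 and 323 against 474, 399, 733 and 462 CPM at 7 days. Fads2 was 3.14-fold lower and 2.24-fold lower (adjusted p = 0.00836) and Fads1 2.30-fold lower and 1.62-fold lower (adjusted p = 0.0131). For both desaturases the groups were apart at 20 weeks and overlapped at 7 days, where HFD mouse 143 had 257 CPM of Fads2 and FEN-HFD mice 65 and 66 had 279 and 284 CPM. These 4 calls held whichever single mouse was left out.

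The calls of the other lipogenic genes rested on more of the mice. Fasn was at 1611, 1477, 465 and 535 CPM in HFD and 289, 410.1, 239 and 343 CPM in FEN-HFD mice at 20 weeks and at 255, 194, 487 and 906 and 223, 130.4, 185 and 235 CPM at 7 days. The HFD livers spread widely, with mice 25 and 28 high at 20 weeks and mouse 146 high at 7 days. Fasn was 2.76-fold lower over both times (log2 -1.46 ± 0.34, adjusted p = 0.0371), and its call was lost without any of mice 21, 22, 24, 25, 28, 29, 62, 65, 144 or 146 (adjusted p 0.0559 to 0.089). Scd1, at 13284, 14841, 11658 and 8411 CPM in HFD against 2894, 5848, 5381 and 2942 CPM in FEN-HFD mice at 20 weeks and 2416, 1615, 3612 and 2045 against 1959.7, 757, 1132 and 2259 CPM at 7 days, was 2.12-fold lower (adjusted p = 0.0423), with overlap at 7 days. Its call was lost without any of mice 21, 22, 24, 25, 28, 29, 33, 45, 62, 65, 142 or 144 (adjusted p 0.0548 to 0.101). Acly was 1.92-fold lower (adjusted p = 0.031), lost without any of mice 21, 22, 24, 25, 28, 29, 62, 65 or 146 (adjusted p 0.0521 to 0.0741). Pklr was 1.59-fold lower (adjusted p = 0.0476), lost without any of mice 21, 22, 24, 25, 28, 29, 33, 45, 62, 65, 142 or 146 (adjusted p 0.0596 to 0.11). The 7-day values of Pklr were 206, 147, 137 and 254 CPM in HFD and 165, 155, 133 and 166 CPM in FEN-HFD mice. For Acly they were 245, 223, 268 and 493 and 224, 159, 186 and 187 CPM. Both genes overlapped between diets at 7 days.

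**Figure D3:**
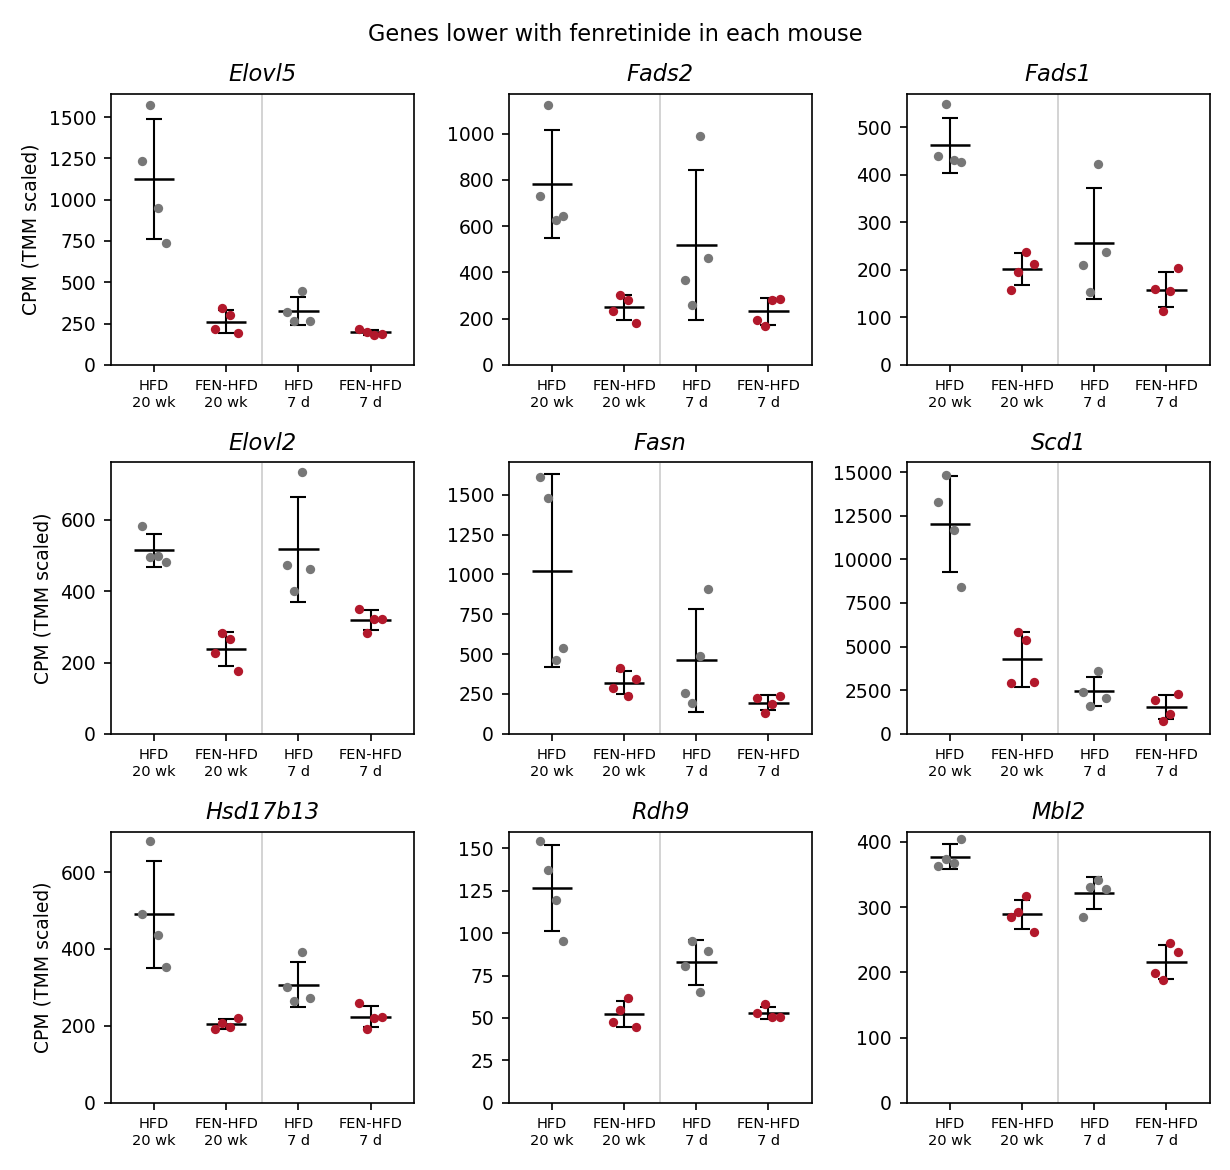
CPM of 9 genes in each of the 16 mice (y axis, linear from 0), by diet and duration (x axis). Points are mice, horizontal lines are means and bars are SD (n = 4). At 20 weeks all 9 genes are lower in every FEN-HFD mouse (red) than in every HFD mouse (grey), and at 7 days Fads2, Fads1, Fasn and Scd1 overlap while Elovl5, Elovl2, Hsd17b13, Rdh9 and Mbl2 do not.

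In triglyceride synthesis and lipid droplets, 3 of 28 genes were lower and none was higher. The list's median log2 fold change was -0.46 at 20 weeks and 0.08 at 7 days. They were Hsd17b13, Gpam, which adds the first acyl chain to glycerol 3-phosphate (1.69-fold lower, adjusted p = 0.0236), and Plin3, a droplet coat protein (1.55-fold lower, adjusted p = 0.0465). The call of Gpam was lost without any of mice 21, 22 or 24 (adjusted p 0.0532 to 0.0655), and that of Plin3 without any of mice 21, 22, 24, 25, 29, 33, 61, 65, 66, 142 or 144 (adjusted p 0.0565 to 0.111). At 7 days both genes overlapped between diets. Among 29 genes of fatty acid uptake and lipoprotein handling, Tm6sf2, Apoc2 and Vldlr were lower and Slc27a2 was higher. Tm6sf2, which loads lipid onto very low-density lipoprotein, was 1.58-fold lower at 20 weeks and 1.51-fold lower at 7 days (adjusted p = 0.00906) with no overlap at either time, at 12.4, 17.3, 13.5 and 13.9 CPM in HFD and 11.2, 8.46, 7.00 and 11.1 CPM in FEN-HFD mice at 7 days. Apoc2, the activator of lipoprotein lipase, was 1.54-fold lower (adjusted p = 0.0265) and lost its call without any of mice 21, 24 or 25 (adjusted p 0.0609 to 0.0677). Vldlr was 2.20-fold lower (adjusted p = 0.0347), lost without any of mice 21, 22, 24, 25, 28, 45, 62, 65, 66 or 144 (adjusted p 0.0528 to 0.0898). Its groups overlapped at both times. Slc27a2, a very long-chain acyl-CoA synthetase, was 1.34-fold higher (adjusted p = 0.0469), lost without any of mice 21, 22, 24, 25, 28, 45, 62, 65, 66, 142, 143 or 146 (adjusted p 0.0633 to 0.108).

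Targets of PPAR alpha, the receptor that turns on fatty acid oxidation, gave 3 lower and no higher genes of 35, and their median log2 fold change was -0.42 at 20 weeks and 0.11 at 7 days. Fgf21, a hormone that the liver secretes, was at 5.70, 10.1, 4.52 and 2.79 CPM in HFD and 0.561, 0.900, 0.452 and 0.416 CPM in FEN-HFD mice at 20 weeks and at 0.282, 1.34, 2.64 and 0.239 and 0.143, 0.112, 0.186 and 0.648 CPM at 7 days. It was 6.77-fold lower over both times (log2 -2.76 ± 0.52, adjusted p = 0.0118), and at 7 days the groups overlapped at low levels. Crat, carnitine acetyltransferase, and Vnn3, a pantetheinase, were lower with larger effects in the 20-week mice. Their log2 fold changes were -1.26 and -0.95 at 20 weeks and -0.18 and -0.14 at 7 days. The call of Crat (adjusted p = 0.0407) was lost without any of mice 21, 22, 24, 25, 28, 29, 33, 45, 61, 62 or 144 (adjusted p 0.0558 to 0.107). That of Vnn3 (adjusted p = 0.031) was lost without any of mice 21, 22, 24, 25, 28, 29 or 45 (adjusted p 0.0541 to 0.0801). In cholesterol synthesis 1 of 24 genes was lower, Sc5d (1.55-fold lower, adjusted p = 0.031), and the median log2 fold change was -0.36. Over all genes tested, 1.12% were shared and lower. At an unadjusted p under 0.05 with the same sign at both times, 10 of the 24 were lower and 0 higher, while over all genes tested 8.58% were lower and 6.24% higher. Sc5d lost its call without any of mice 21, 22, 24, 25, 28, 29, 62, 65, 66 or 144 (adjusted p 0.0512 to 0.077). In bile acid synthesis and transport, 1 of 28 was lower, the hydroxylase Cyp39a1 (2.61-fold lower, adjusted p = 0.0345), which lost its call without any of mice 21, 22, 24, 25, 28, 29, 33, 45, 62, 65, 66 or 144 (adjusted p 0.051 to 0.0886). At 7 days Sc5d and Cyp39a1 overlapped between diets.

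Phospholipid and sphingolipid genes gave 1 and 2 shared genes of 25 and 20. Pemt, which methylates phosphatidylethanolamine to phosphatidylcholine, was 1.27-fold lower (adjusted p = 0.0373), and its call was lost without any of mice 21, 22, 24, 25, 28, 33, 45, 61, 62, 65, 142, 144 or 146 (adjusted p 0.051 to 0.0886). At 7 days the Pemt values overlapped between diets. Smpd3, a neutral sphingomyelinase, was at 9.43, 21.5, 13.0 and 11.2 CPM in HFD and 31.6, 39.9, 32.8 and 20.9 CPM in FEN-HFD mice at 20 weeks, where mouse 29 overlapped HFD mouse 28, and at 8.65, 12.7, 8.16 and 9.16 and 14.7, 21.9, 21.0 and 24.2 CPM at 7 days, where the groups were apart. Smpd3 was 2.20-fold higher (adjusted p = 0.00227) and held without any single mouse. Acer2, an alkaline ceramidase, was 1.34-fold higher (adjusted p = 0.031), lost without any of mice 22, 24, 25, 33, 45, 65, 66, 142 or 146 (adjusted p 0.0502 to 0.0773). Its groups overlapped at 7 days.

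Drug-metabolising genes moved in both directions. Of 38 cytochromes P450, 4 were higher (Cyp2c70, Cyp2c37, Cyp2c69 and Cyp2d10) and 3 lower (Cyp2b10, Cyp2c55 and Cyp2u1), and the median log2 fold change was 0.03. Cyp2c70, which makes muricholic acids in mice, was at 177, 113, 202 and 260.1 CPM in HFD and 723, 765, 869 and 559 CPM in FEN-HFD mice at 20 weeks, and at 875, 617, 736 and 699 and 1355, 1470.1, 1347 and 1293 CPM at 7 days. The 7-day HFD livers were as high as the 20-week FEN-HFD livers, and within each time the groups did not overlap. It was 3.87-fold higher and 1.87-fold higher (adjusted p over both times = 0.00094). Cyp2b10, the classical target of the receptor CAR, was at 3.09, 0.744, 3.83 and 2.30 CPM in HFD and 0.0749, 0.274, 0.352 and 0 CPM in FEN-HFD mice at 20 weeks, and at 0.314, 0.159, 0.742 and 0.717 and 0, 0, 0.0620 and 0.243 CPM at 7 days. It was low in all livers and lower with fenretinide (log2 -3.31 ± 0.57, adjusted p = 0.0063), and it was the 1 lower gene that also passed a test for a change of over 1.5-fold. Cyp2u1 was lower by a like amount at both times, 1.69-fold lower and 1.74-fold lower (adjusted p = 0.00621), and Cyp2c55 was 2.35-fold lower (adjusted p = 0.00554). Cyp2c55 overlapped between diets at 7 days. Genes of the Cyp2c and Cyp2d families have close copies among which reads may have been divided.

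Among 41 genes of conjugation, 3 were higher and 4 lower. Sult1e1, the estrogen sulfotransferase, was at 0.302, 0.341, 0.229 and 0.525 CPM in HFD and 1.72, 19.9, 21.7 and 0.728 CPM in FEN-HFD mice at 20 weeks, and at 0.314, 0.0636, 0.129 and 0.319 and 0.229, 2.88, 0.837 and 0.850 CPM at 7 days. Mice 22 and 24 were far above mice 21 and 29. Sult1e1 passed the filter on low counts through the FEN-HFD livers. Its adjusted p was 0.0216, and the call was lost without any of mice 25, 28, 33 or 45 (adjusted p 0.051 to 0.0665), and with limma-voom (adjusted p = 0.0676). Gstt3, a glutathione transferase, was 1.72-fold higher (adjusted p = 0.0306) and lost its call without any of mice 22, 24, 25, 28 or 45 (adjusted p 0.0574 to 0.0735). Sult1c2 was 1.99-fold lower (adjusted p = 0.0131), and Mgst3 2.21-fold lower (adjusted p = 0.0296). Mgst3 lost its call without any of mice 21, 22, 24, 25 or 65 (adjusted p 0.0558 to 0.0801). The 7-day values of Mgst3 were 4.73, 5.38, 5.81 and 4.62 CPM in HFD and 4.86, 3.14, 2.48 and 3.93 CPM in FEN-HFD mice. These overlapped, and so did those of Gstt3 and Sult1c2 at 7 days. The remaining higher gene was Ugt1a1. Gsta1 (adjusted p = 0.0476) and Gclc (adjusted p = 0.0493), which are also the 2 lower genes of 21 NRF2 targets, sat at the threshold. At 20 weeks Gsta1 was at 7.70, 19.9, 3.83 and 1.45 CPM in HFD mice. At 7 days it was at 0.0314, 0.382, 0.161 and 0.0797 CPM in HFD and 0.171, 0.0749, 0.0310 and 0.202 CPM in FEN-HFD mice. These 7-day values overlapped, and the sign of Gsta1 at 7 days rested on a few reads. Gsta1 lost its call without any of mice 21, 22, 24, 25, 28, 29, 33, 62, 65, 143 or 144 (adjusted p 0.0552 to 0.144), and Gclc without any of mice 21, 22, 24, 25, 28, 29, 33, 45, 62, 65, 66, 142 or 143 (adjusted p 0.0578 to 0.114). The median log2 fold change of the NRF2 targets was -0.65 at 20 weeks and -0.18 at 7 days. At an unadjusted edgeR p under 0.05 with the same sign at both times, 1 of the 21 was higher and 11 lower. Over all genes tested the shares were 6.24% and 8.58%. DESeq2 called 7 of them lower and limma-voom 4.

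Of 22 genes of steroid metabolism, Hsd17b2 was higher and Hsd17b6, Hsd17b13 and Cyp17a1 were lower. Hsd17b6, a dehydrogenase of steroids, was at 189, 109.7, 169.8 and 184 CPM in HFD and 64.8, 74.9, 27.0 and 101 CPM in FEN-HFD mice at 20 weeks, and at 257, 342, 271 and 209 and 185, 128, 109 and 91.5 CPM at 7 days. The groups were apart at both times and the effect was alike, 2.44-fold lower and 2.10-fold lower (log2 over both times -1.18 ± 0.22, adjusted p = 0.0129). Hsd17b2, which inactivates estradiol and testosterone, was 1.52-fold higher (adjusted p = 0.0128) at 177, 152, 154 and 133 CPM against 74.0, 70.7, 100.3 and 94.8 CPM at 20 weeks and 235, 264, 224 and 195 against 223, 149, 178 and 173 CPM at 7 days, where the groups overlapped. Cyp17a1, the 17-hydroxylase of steroid synthesis, was 5.07-fold lower (adjusted p = 0.0129) and spread widely in the HFD livers, at 20.5, 38.4, 11.5 and 15.7 CPM at 20 weeks and 3.04, 1.88, 9.87 and 6.45 CPM at 7 days. The FEN-HFD livers were at 1.35, 4.50, 3.12 and 1.35 CPM at 20 weeks. At 7 days they were at 2.26, 1.12, 1.12 and 2.35 CPM, which overlapped HFD mouse 143.

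Of 42 acute phase and complement genes, 1 was shared and higher, Mbl1, and 2 were lower, Mbl2 and Hamp2. These were 2.38% and 4.76% of the list, beside 0.986% and 1.12% of all genes tested. Mbl2, a mannose-binding lectin that activates complement and the gene that was lower at each time on its own, was at 363, 373, 368 and 405 CPM in HFD and 285, 292, 316 and 262 CPM in FEN-HFD mice at 20 weeks, and at 285, 331, 341 and 328 and 199, 188, 245 and 231 CPM at 7 days. It was 1.30-fold lower and 1.49-fold lower (log2 over both times -0.48 ± 0.07, adjusted p = 0.00192). Mbl1, the other mannose-binding lectin, moved the opposite way, 1.45-fold higher and 1.37-fold higher (adjusted p = 0.00355), at 239, 213, 265 and 219.9 CPM against 152, 136, 188 and 170.1 CPM at 20 weeks and 228, 241, 231 and 222 against 191, 176, 138 and 169 CPM at 7 days. In both genes the groups did not overlap at either time. Hamp2, a hepcidin, was 4.03-fold lower and 3.80-fold lower (adjusted p = 0.00532), at 17.5, 5.57, 24.3 and 32.9 CPM in HFD and 7.94, 2.85, 3.32 and 6.92 CPM in FEN-HFD mice at 7 days with overlap. The median log2 fold change of the 42 genes was 0.62 at 20 weeks and -0.07 at 7 days.

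Of 10 hepatocyte markers, 3 that encode abundant plasma proteins were lower. Ttr is given above. Trf, transferrin, was 1.34-fold lower (adjusted p = 0.0198) and lost its call without mouse 22 (adjusted p = 0.0533). Alb was 1.38-fold lower (adjusted p = 0.0373) and lost its call without any of mice 21, 22, 24, 25, 28, 33, 45, 62, 65, 66, 142, 144 or 146 (adjusted p 0.0535 to 0.106). The adjusted p of Alb was 0.0504 with upper-quartile scaling. The median of the 10 markers was -0.08. In whole liver, fewer cells of a type and less RNA per cell cannot be told apart.

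Major urinary proteins, pheromone carriers that growth hormone drives in male liver, were higher in part. Of the 22 genes tested in the list of these proteins and the growth hormone axis, 2 were shared and higher, Mup10 and Mup11, and none was lower. At an unadjusted edgeR p under 0.05 with the same sign at both times, 8 of the 22 were higher and 1 lower. Over all genes tested the shares were 6.24% and 8.58%. DESeq2 called 5 of them higher and limma-voom 6. The list did not hold Mup8, Mup9, Mup13 or Mup15. Mup9, which met the rule for the largest changes, was at 0.340, 0.124, 0.327 and 0.202 CPM in HFD and 25.1, 29.1, 31.0 and 4.99 CPM in FEN-HFD mice at 20 weeks, and at 1.85, 0.573, 0.290 and 1.04 and 3.37, 3.74, 5.98 and 3.64 CPM at 7 days. Mouse 29 was the lowest FEN-HFD liver at 20 weeks and still above all HFD livers. The log2 fold change was 6.51 ± 0.66 at 20 weeks and 2.16 ± 0.54 at 7 days (adjusted p over both times = 0.0108), and the difference between the times had an adjusted p of 0.096. Mup8 went the same way (15.5-fold higher and 2.60-fold higher, adjusted p = 0.0236), and lost its call without any of mice 25, 28, 33 or 45 (adjusted p 0.052 to 0.0596). Mup10 (adjusted p = 0.0397) and Mup11 (adjusted p = 0.034) were near the threshold. Mup10 lost its call without any of mice 21, 22, 24, 25, 28, 33, 45, 62, 65, 66, 143 or 144 (adjusted p 0.0501 to 0.0916), and Mup11 without any of mice 21, 22, 24, 25, 28, 33, 45, 65, 66, 144 or 146 (adjusted p 0.0508 to 0.0717). Mup13 and Mup15, picked out later, were also shared and higher (adjusted p = 0.0351 and 0.0251). Mup13 lost its call without any of mice 21, 22, 24, 25, 28, 33, 45, 65, 66, 143 or 144 (adjusted p 0.0501 to 0.085), and Mup15 without any of mice 25, 33 or 45 (adjusted p 0.0521 to 0.0645). These genes are near-identical copies, so that reads cannot be placed with certainty among them.

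Further genes with large shared changes belonged to no list. Meg3 and Rian, non-coding RNAs of the imprinted Dlk1-Dio3 region on chromosome 12, were 6.74-fold higher (log2 2.75 ± 0.28, adjusted p = 4.27e-05) and 6.28-fold higher (log2 2.65 ± 0.31, adjusted p = 0.000277). Meg3 was at 0.491, 0.279, 0.524 and 1.45 CPM in HFD and 4.27, 4.66, 7.19 and 4.68 CPM in FEN-HFD mice at 20 weeks, and at 1.19, 1.08, 0.548 and 1.59 and 4.34, 8.05, 6.23 and 7.77 CPM at 7 days. For Rian the values were 0.340, 0.465, 0.491 and 2.02 and 4.30, 4.89, 9.80 and 3.74 CPM at 20 weeks and 1.19, 1.46, 0.903 and 1.71 and 5.43, 8.72, 8.40 and 7.33 CPM at 7 days. In both RNAs every FEN-HFD liver exceeded every HFD liver of its time, and the 2 effects were of like size at the 2 times. Both genes overlap small RNA genes and Rtl1, which lies on the other strand, and whether strand was used in counting is not given in the sources used here.

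Pisd-ps1, Dclre1a and Gm4952 completed the genes that were higher at each time on its own. Pisd-ps1, a pseudogene on chromosome 11 (3124002 to 3131945), was at 4.79, 4.40, 3.93 and 4.57 CPM in HFD and 12.4, 15, 10.8 and 15.9 CPM in FEN-HFD mice at 20 weeks, and at 3.48, 5.12, 3.84 and 4.78 and 7.94, 7.34, 10.8 and 6.72 CPM at 7 days (2.41-fold higher, adjusted p = 0.000123). It overlaps the end of Sfi1, which was also shared and higher (1.57-fold higher, adjusted p = 0.00134), so that reads of the 2 genes may be mixed. Dclre1a, a nuclease of DNA crosslink repair, was 1.47-fold higher at 20 weeks and 1.68-fold higher at 7 days (adjusted p over both times = 0.00153), without overlap between diets. It overlaps Nhlrc2. Gm4952, a predicted gene, was at 87.1, 85.2, 134 and 83.5 CPM in HFD and 143, 162, 163 and 121 CPM in FEN-HFD mice at 20 weeks, where HFD mouse 33 exceeded FEN-HFD mouse 29, and at 119.9, 77.8, 94.5 and 92.0 and 201, 188, 204 and 176 CPM at 7 days (1.74-fold higher, adjusted p = 0.00171). Ddb2, a DNA damage sensor, and Inhbb, an activin subunit, were picked out after their values were seen and were 1.76-fold higher and 1.79-fold higher (adjusted p = 0.000697 and 0.00192), each without overlap at either time.

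Adam11, a membrane protein of the disintegrin family, was at 1.55, 2.76, 2.65 and 1.21 CPM in HFD and 22.9, 13.4, 14.1 and 30.7 CPM in FEN-HFD mice at 20 weeks, and at 2.41, 2.83, 4.26 and 2.47 and 5.83, 10.4, 7.47 and 6.84 CPM at 7 days (4.92-fold higher, adjusted p = 0.00312). Gpcpd1, a glycerophosphocholine phosphodiesterase, was 2.51-fold higher at 20 weeks and 2.01-fold higher at 7 days (adjusted p = 0.00478), at 705, 865, 1069.6 and 1079 CPM in FEN-HFD against 491, 316, 652 and 387 CPM in HFD mice at 7 days. Neither gene overlapped between diets at either time, which the rule for naming them required. Mt2, a metallothionein, was at 2.08, 5.64, 5.83 and 1.05 and 24.5, 8.18, 15.5 and 88.8 CPM at 20 weeks and 0.533, 1.56, 1.48 and 0.398 and 2.0, 3.03, 11.0 and 13.7 CPM at 7 days, and mouse 29 was the highest of all. It was 8.28-fold higher (adjusted p = 0.019), its log2 fold change was 2.48 without mouse 29 (adjusted p = 0.029), and its call was lost without mouse 25 (adjusted p = 0.0536). Its neighbour Mt1 was also higher (adjusted p = 0.0345), and lost its call without any of mice 21, 24, 25, 28, 29, 33, 45, 65, 66, 142 or 146 (adjusted p 0.0507 to 0.0831). Gm14420 and Gm14403, predicted genes of a cluster of close copies on chromosome 2, were 2.17-fold higher and 1.92-fold higher (adjusted p = 0.00131 and 0.00131).

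Of the lower genes outside the lists, Gabbr2, a subunit of the GABA-B receptor, was at 20.9, 17.8, 18.2 and 16.6 CPM in HFD and 7.41, 5.64, 6.63 and 8.95 CPM in FEN-HFD mice at 20 weeks, and at 11.9, 15.4, 22.7 and 12.5 and 8.63, 10.2, 7.78 and 7.33 CPM at 7 days. It was 2.60-fold lower and 1.84-fold lower (log2 over both times -1.12 ± 0.14, adjusted p = 0.000491). Osbpl5, an oxysterol-binding protein relative, was 1.90-fold lower (adjusted p = 0.0191), lost without mouse 21 (adjusted p = 0.0539). Col5a3, a collagen V chain, was 1.69-fold lower and 1.63-fold lower (adjusted p = 0.00412), at 53.9, 51.9, 42.7 and 45.1 CPM in HFD and 27.1, 34.7, 28.0 and 29.3 CPM in FEN-HFD mice at 7 days. Mn1, Tmem98, Ralgps2 and D130043K22Rik were 1.66-fold lower, 1.58-fold lower, 1.55-fold lower and 1.80-fold lower (adjusted p = 0.00571, 0.00582, 0.00697 and 0.00535). In these 7 genes no FEN-HFD liver overlapped an HFD liver of its time, which is what the rule for naming them required.

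The remaining lists gave few shared genes, to be read beside the 0.986% higher and 1.12% lower of all genes tested. Gckr, the glucokinase regulator, was 1.29-fold lower (adjusted p = 0.0155) and with Pklr made the 2 lower of 29 genes of gluconeogenesis, glycolysis and insulin signalling. Gldc, glycine decarboxylase, was the 1 lower of 38 genes of amino acid metabolism and the urea cycle (1.65-fold lower, adjusted p = 0.0141). In fibrosis and extracellular matrix, 2 of 33 were lower. Col15a1, a basement membrane collagen, was 2.10-fold lower and 1.65-fold lower (adjusted p = 0.00412) without overlap at either time, and Lum, lumican, was 2.62-fold lower and 1.17-fold lower (adjusted p = 0.0416). Lum lost its call without any of mice 21, 22, 24, 25, 28, 29, 33, 45, 65 or 66 (adjusted p 0.051 to 0.104). Fgf21 was the 1 lower of 23 genes of endoplasmic reticulum and integrated stress. H2-Q1 and H2-Q10 were lower of 19 genes of MHC class I and II (adjusted p = 0.0345 and 0.0476), and have close copies. H2-Q1 lost its call without any of mice 21, 22, 24, 25, 29, 62 or 144 (adjusted p 0.0559 to 0.0926), and H2-Q10 without any of mice 21, 22, 24, 25, 28, 29, 33, 45, 61, 62, 142, 144 or 146 (adjusted p 0.0612 to 0.121). None of 18 clock genes, 29 interferon-stimulated genes or 27 cell cycle genes was shared, and at an unadjusted p under 0.05 these lists held 0, 0 and 0 higher and 1, 1 and 2 lower genes, shares below the 6.24% and 8.58% of all genes. Of the interferon-stimulated genes, 12 of 29 had a negative and 0 a positive log2 fold change at both times, against 30.2% and 26.6% of all genes, and their median log2 fold change was 0.04 at 20 weeks and -0.49 at 7 days. Their summed level was 707, 2889, 771 and 911 CPM in HFD and 791, 812, 872 and 854 CPM in FEN-HFD mice at 7 days, and HFD mouse 143 stood far above the others. At 20 weeks it was 632, 716, 679 and 574 and 629, 589.5, 600.1 and 1199.8 CPM, with mouse 29 the highest.

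**Figure D4:**
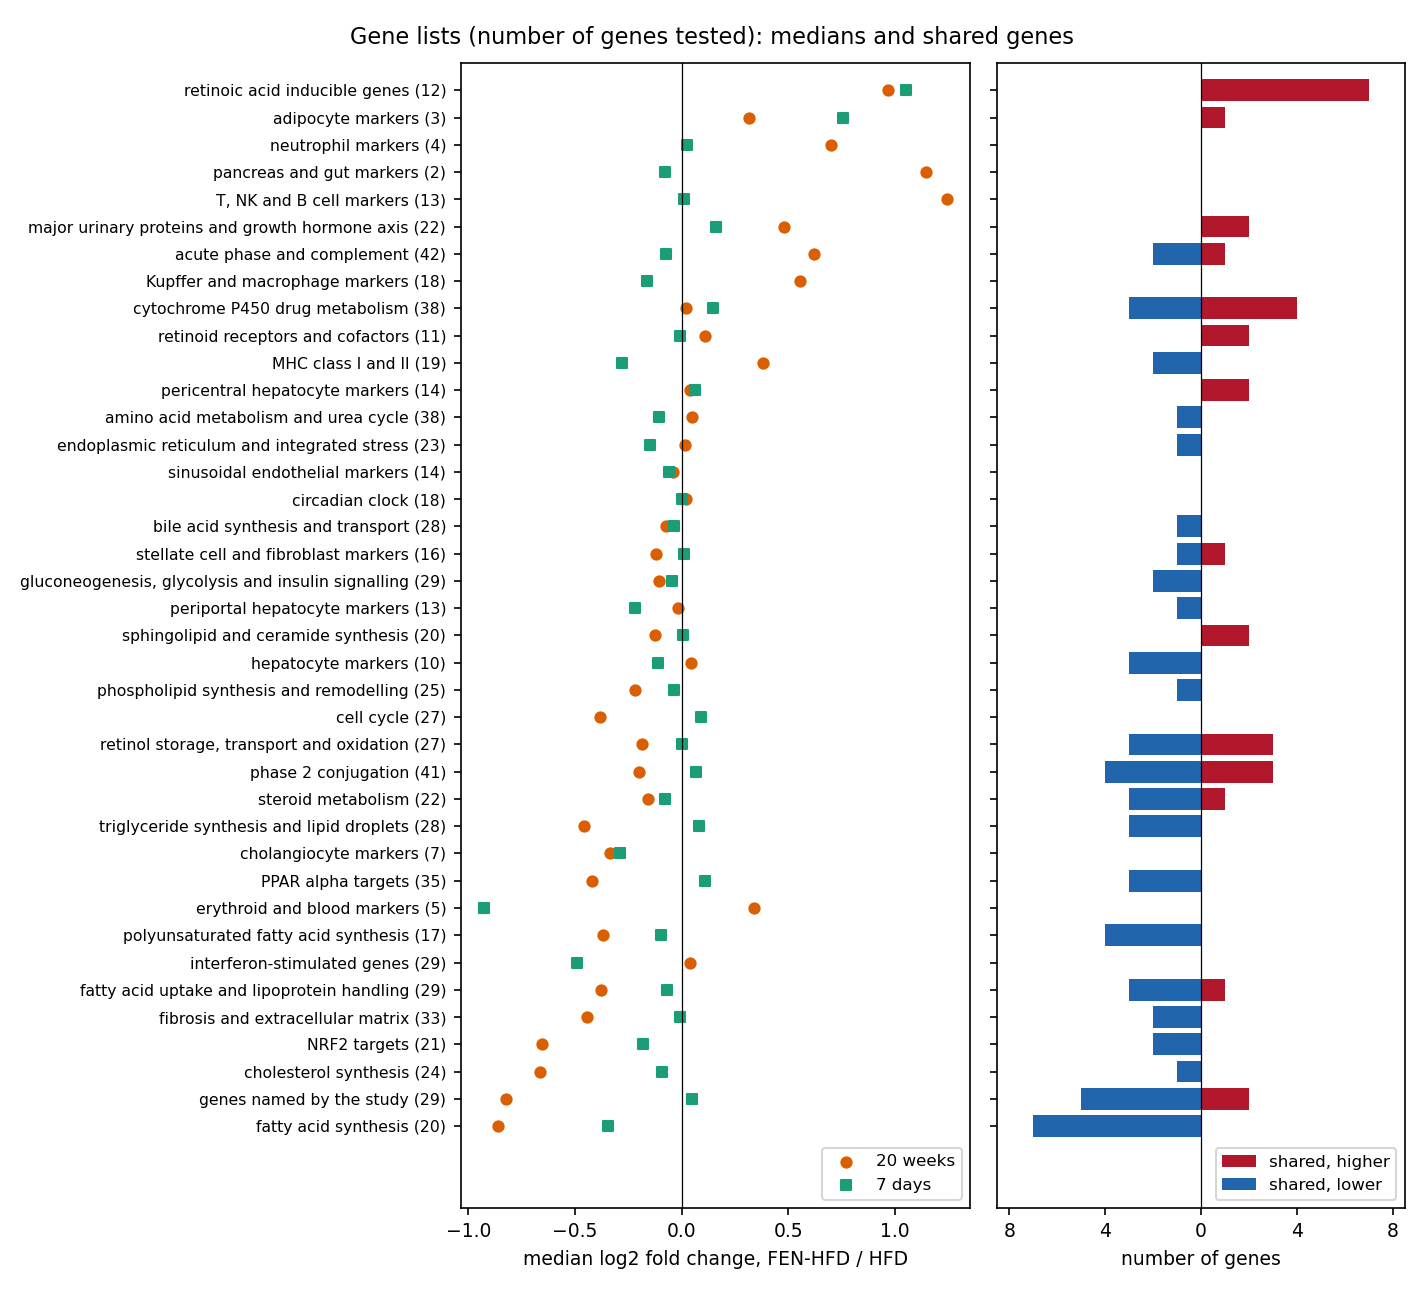
Left, median log2 fold change of FEN-HFD over HFD in each of 39 gene lists at 20 weeks (orange circles) and 7 days (green squares), with the number of genes tested in brackets. Right, number of shared genes in each list, higher to the right in red and lower to the left in blue. Retinoic acid inducible genes have the highest median at 7 days and 7 higher genes, and fatty acid synthesis the lowest median at 20 weeks and 7 lower genes.

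Markers of other liver cells were examined beside these lists. None of 18 Kupffer cell and macrophage, 14 sinusoidal endothelial, 7 cholangiocyte, 13 lymphocyte, 4 neutrophil, 5 blood and 2 pancreas or gut markers was shared. In edgeR, 1, 0, 0, 0, 0, 1 and 1 of them were higher and 0, 2, 2, 0, 0, 1 and 0 lower at an unadjusted p under 0.05, beside 6.24% and 8.58% of all genes. The medians of lymphocyte and macrophage markers were 1.24 and 0.56 at 20 weeks and 0.01 and -0.16 at 7 days. The summed level of the lymphocyte markers was 7.28, 6.57, 5.14 and 6.95 CPM in HFD and 9.36, 5.29, 7.99 and 44.2 CPM in FEN-HFD mice at 20 weeks, and 9.28, 21.1, 10.5 and 12.2 and 13.7, 12, 12.5 and 15.6 CPM at 7 days. The macrophage markers summed to 713, 881, 743 and 661 and 919, 799.6, 791 and 1917 CPM at 20 weeks and 762, 1654, 856 and 908 and 827, 955, 1087 and 995 CPM at 7 days. In both lists 1 liver stood far above its group at each time, FEN-HFD mouse 29 at 20 weeks and HFD mouse 143 at 7 days. For the stellate cell and fibroblast markers the sums overlapped between diets at each time, and Lrat was higher and Lum lower among 16. Of 14 pericentral markers Lgr5 and Rhbg were higher (1.80-fold higher and 2.06-fold higher, adjusted p = 0.0373 and 0.0491), but Lgr5 lost its call without any of mice 21, 22, 24, 25, 28, 33, 45, 61, 62, 143 or 144 (adjusted p 0.0527 to 0.0846), and Rhbg without any of mice 21, 22, 24, 25, 28, 29, 33, 45, 62, 65, 66, 142, 143 or 144 (adjusted p 0.0508 to 0.108). Of 3 adipocyte markers tested, 1 was shared. Cfd, adipsin, was higher (5.79-fold higher, adjusted p = 0.0265), and its highest value was that of mouse 29, 144 CPM, while Adipoq, Plin1, Lep, Retn and Adig were below the filter. Cfd lost its call without any of mice 21, 25, 28 or 45 (adjusted p 0.0576 to 0.077). Its 7-day values were 1.35, 0.0955, 0.0645 and 1.15 CPM in HFD and 0.429, 1.57, 2.91 and 5.14 CPM in FEN-HFD mice. These Cfd values overlapped. With DESeq2 and with limma-voom 2 of the 3 were higher. The 3 summed to 3395, 3024, 3934 and 2934 CPM in HFD and 3948, 4454, 4929 and 3448 CPM in FEN-HFD mice at 20 weeks, where the groups overlapped, and to 3156, 1327, 2088 and 3245 and 3722, 4244, 4336 and 4275 CPM at 7 days, where they did not. Most of this sum was Car3, a carbonic anhydrase that hepatocytes also express. The part of these markers in the shared genes was not tested.

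Genes that the study itself named were followed through both times, and since it chose them on some of these livers their direction at 20 weeks is no independent evidence. Of 29 tested, 7 were shared. Lrat and Hsd17b2 were higher, and Crat, Hsd17b13, Vldlr, Fads1 and Col15a1 were lower. The number lower was 9 with DESeq2 and 10 with limma-voom, and Cd36 (adjusted p = 0.00318 and 0.0216), Rdh16 (0.0106 and 0.0391), Gstm2 (0.0273 and 0.03) and Timp2 (0.0111 and 0.0261) passed with both tools. The median log2 fold change of the 29 was -0.82 at 20 weeks and 0.05 at 7 days. Cd36, a fatty acid transporter, was at 358, 464, 254 and 203 CPM in HFD and 116, 119, 145 and 122 CPM in FEN-HFD mice at 20 weeks, but at 45.8, 51.6, 74.7 and 54.3 and 53.1, 44.8, 45.7 and 48.9 CPM at 7 days (adjusted p over both times = 0.0564). It passed without any of mice 61, 142 or 143 (adjusted p 0.0346 to 0.0431). Rdh16 and Gstm2 had log2 fold changes of -1.42 and -1.18 at 20 weeks and -0.06 and -0.09 at 7 days (adjusted p = 0.0928 and 0.12). Rdh16 passed without mouse 66 (adjusted p = 0.0309). Vnn1, at 157, 189, 167 and 127 against 113, 96.3, 109 and 71.0 CPM at 20 weeks and 33.8, 38.0, 27.1 and 31.8 against 38.6, 60.0, 47.0 and 44.6 CPM at 7 days, was lower without overlap at the first and higher without overlap at the second, a log2 fold change of -0.72 and 0.54 (difference, adjusted p = 0.0709). Over all 13387 genes tested, 14 (0.105%) had no overlap at both times in opposite directions. Mogat1 had a log2 fold change of -1.66 ± 0.35 at 20 weeks and 0.22 ± 0.52 at 7 days. Col1a1 (-0.62), Col12a1 (-0.48), Timp2 (-0.52), Pnpla3 (-0.66), Inhbe (-0.36) and Avpr1a (0.55) did not pass over both times, with adjusted p between 0.0589 and 0.533. Timp2 passed without any of mice 33, 62 or 143 (adjusted p 0.0385 to 0.0426). Mogat1, Agpat9, Cyp46a1, Hsd17b7, Hsd17b11, Hsd17b4, Hsd17b12, Cept1, Lpcat3, Ctgf, Cyp2b13 and Wwtr1 had adjusted p of 0.157 to 0.975, Timp1 was below the filter, and Hsd17b11 passed without mouse 61 (adjusted p = 0.0263).

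The size of the effect was compared between the times by the interaction term. It passed for 4 genes (0.0299%), of which Nnt was the 1 shared gene. Nnt, the gene of the mitochondrial transhydrogenase, was at 81.8, 87.6, 79.5 and 79.1 CPM in HFD and 48.2, 49.0, 52.3 and 43.0 CPM in FEN-HFD mice at 20 weeks, and at 54.8, 56.5, 56.1 and 61.3 and 53.5, 52.4, 54.2 and 52.9 CPM at 7 days. These are RNA levels, and whether these mice make a working protein from the gene was not tested here. The groups were apart at both times, and the effect was 1.70-fold lower at 20 weeks and 1.07-fold lower at 7 days (difference in log2 -0.67 ± 0.10, adjusted p = 0.0197). Its shared call was lost without any of mice 21, 22, 24 or 25 (adjusted p 0.0581 to 0.0664). Of the other shared genes with at least 5 CPM, the smallest p for the difference belonged to the lower genes 5033411D12Rik, Vnn3, Crat and Lum and to the higher genes Adamdec1, Mup9, Adam11, Emr4 and Wfdc17, with adjusted p between 0.0575 and 0.166. The gene 5033411D12Rik lost its shared call without any of mice 21, 22, 24, 25, 28, 29, 33, 45, 62 or 142 (adjusted p 0.0537 to 0.108). Adamdec1, Emr4 and Wfdc17, all expressed in myeloid cells, had log2 fold changes of 1.68, 1.01 and 0.84 at 20 weeks and 0.25, 0.20 and 0.16 at 7 days. Adamdec1 lost its shared call without any of mice 21, 22, 24, 25, 28, 33, 45, 144 or 146 (adjusted p 0.0525 to 0.0937), and the other 2 without any of mice 21, 22, 24, 25, 28, 33 or 45 (adjusted p 0.0504 to 0.0822).

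The 3 other genes that differed between the times were not shared, and their effects had opposite signs. Abcc3, an export pump for conjugates, was at 354, 418, 357 and 256 CPM in HFD and 183, 176, 177 and 211 CPM in FEN-HFD mice at 20 weeks, and at 112, 103, 117 and 110.3 and 137, 118, 159 and 181 CPM at 7 days. Its groups were apart at both times in opposite directions, 1.85-fold lower and then 1.35-fold higher (difference in log2 -1.32 ± 0.20, adjusted p = 0.0197). Such a lack of overlap in opposite directions was found for 0.105% of all genes tested. Cyp46a1, a cholesterol hydroxylase, had log2 fold changes of -1.80 ± 0.21 and 0.44 ± 0.23 (adjusted p of the difference = 0.0119). At 7 days its level was low, at 0.721, 0.827, 0.613 and 0.637 CPM in HFD and 0.886, 0.936, 0.868 and 1.13 CPM in FEN-HFD mice. Atp8b5 had 1.83 ± 0.28 and -1.30 ± 0.33 (adjusted p of the difference = 0.0119). Its 7-day values were 0.564, 0.605, 0.581 and 0.398 CPM in HFD and 0.286, 0.225, 0.217 and 0.121 CPM in FEN-HFD mice, which correspond to few reads. The number of genes with a difference was 0 to 14 when 1 mouse was left out, with 0 without mouse 22 or mouse 65, 2 without mouse 21, 25 or 66, 7 without mouse 28, 8 without mouse 33 or 146 and 14 without mouse 45.

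Without mouse 29, 138 genes were higher (1.02%) and 129 lower (0.953%) of 13542 tested. Of the 132 shared higher genes, 118 (89.4%) were still called, and of the 150 lower ones 104 (69.3%). Conversely, 85.5% of the higher and 80.6% of the lower calls made without this mouse were among the 282. At each time on its own, 14 genes were higher and 2 lower. All 282 genes kept their sign, and the largest shift in log2 fold change was 0.57, in Mt2. Named genes that were called with the mouse and not without it were Acly, Fasn, Scd1, Pklr, Plin3, Vnn3, Crat, Sc5d, Cyp39a1, Gsta1, Gclc, H2-Q1, H2-Q10, Lum and 5033411D12Rik among the lower and Rhbg, Dhrs3 and Mt1 among the higher genes. Their adjusted p without it ran from 0.0507 to 0.0802. With no filter on low counts, Pemt, Plin3, Crat, Slc27a2, Cyp39a1, Pklr, Mup10, Mup11, Mup13, Gsta1, Gclc, H2-Q1, H2-Q10, Lum, Alb, Rhbg, Dhrs3, Fasn, Scd1 and Mt1 lost their calls (adjusted p 0.0534 to 0.084). With upper-quartile scaling Plin3, Pklr, Gclc, H2-Q10, Lum and Alb did (adjusted p 0.0504 to 0.0578).

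**Figure D5:**
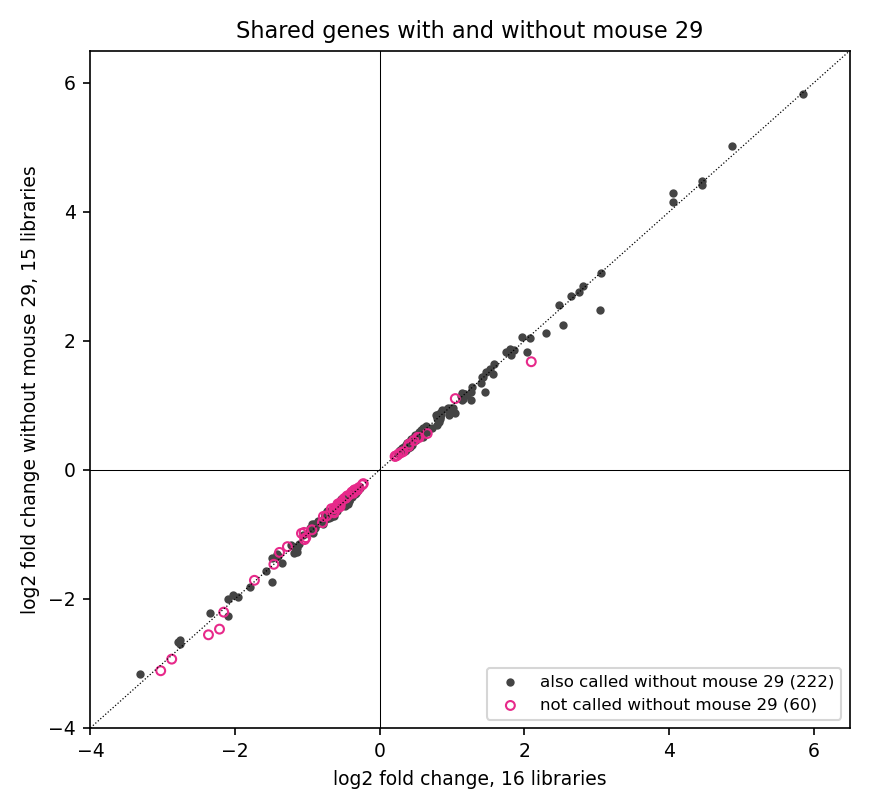
Log2 fold change over both times of the 282 shared genes from all 16 libraries (x axis) and without FEN-HFD mouse 29 (y axis), with the dotted line marking equal values. The 222 genes in dark grey were also called without the mouse and the 60 in pink were not. All points lie close to the line and on the same side of 0 on both axes.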

How the data were processed

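Liver RNA of 16 mice was sequenced from total RNA libraries depleted of ribosomal RNA. The paper names Ribo-Zero and the TruSeq RNA Library Preparation Kit v2, and it does not state whether the libraries kept strand. The deposited values were raw read counts per gene, which the authors had made from reads on mm10, and their processing notes name STAR 2.0 and DESeq2 1.6. The counting tool, its annotation and its strand setting are not given in the sources used here. The 27 symbols that had been turned into dates were left as they stood.

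Counts of 23420 genes were filtered (filterByExpr on the 4 groups), scaled by TMM and fitted with edgeR 4.0.16 (quasi-likelihood, robust) in R 4.3.3, with terms for duration and fenretinide. Signs, each time on its own and the difference between times came from contrasts of the 4 groups. Replicates were separate mice by their numbers in the labels. Alternatives were DESeq2 1.42.0, limma-voom (limma 3.58.1), a 1.5-fold threshold, other scalings and filters, no duration term, a fit of each time and leaving out each mouse. The steps were run on simulated data in which fenretinide acted equally at both times and duration had no effect. Such data cannot test the duration term or the rule of the same sign.

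Genes were named as the 12 per direction with the largest shared change among genes that averaged 5 CPM or more and whose diets did not overlap at either time, up to 4 per gene list by p, the genes the study named, and up to 5 per direction by the p of the difference. Others are said to be added. Some genes of the lists are counted in them but not reported here by name. The members, lists and rules were chosen with earlier results of these data known. Gene coordinates and promoter windows were from RefSeq (GRCm38.p6), and 9884 of the 13387 genes tested had a window.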

Additional observations from a re-analysis of the deposited data

Results flagged for a closer look

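In 27 of 476 groups of 4 mice (5.67%), 1 mouse stood apart in the level of a named gene, its gap to the next mouse divided by the range of the group being above Dixon's 95% critical value. Chance sets apart about 1 group in 20. Mouse 29 was the one set apart in 5 of the 27. Among HFD mice at 20 weeks these were Cyp26a1 in mouse 25 (highest, 0.878), Elovl2 in mouse 25 (highest, 0.838), Fads1 in mouse 28 (highest, 0.895), Rian in mouse 45 (highest, 0.91), Gm4952 in mouse 33 (highest, 0.93) and Raet1a in mouse 28 (highest, 0.863). Among FEN-HFD mice at 20 weeks these were Vldlr in mouse 29 (highest, 0.922), Cyp39a1 in mouse 22 (highest, 0.835), Lum in mouse 29 (highest, 0.885), Mogat1 in mouse 29 (lowest, 0.861), Col1a1 in mouse 29 (highest, 0.895), Col12a1 in mouse 29 (lowest, 0.914), Meg3 in mouse 24 (highest, 0.858) and Dclre1a in mouse 22 (highest, 0.889). Among HFD mice at 7 days these were Acly in mouse 146 (highest, 0.832), Cyp2c55 in mouse 146 (highest, 0.894), Gldc in mouse 143 (lowest, 0.89), Mup11 in mouse 142 (highest, 0.848), Ctgf in mouse 144 (highest, 0.889) and Emr4 in mouse 143 (highest, 0.936). Among FEN-HFD mice at 7 days these were Cyp26a1 in mouse 65 (highest, 0.879), Mup9 in mouse 65 (highest, 0.858), Ralgps2 in mouse 66 (lowest, 0.95), Plin3 in mouse 62 (highest, 0.887), Fgf21 in mouse 66 (highest, 0.863), Cyp39a1 in mouse 61 (highest, 0.876) and Sult1c2 in mouse 61 (highest, 0.895).

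The effect of fenretinide differed between 20 weeks and 7 days, by the interaction term of edgeR, for Nnt (-0.67 in log2, adjusted p = 0.0197), Cyp46a1 (-2.24 in log2, adjusted p = 0.0119), Abcc3 (-1.32 in log2, adjusted p = 0.0197) and Atp8b5 (3.13 in log2, adjusted p = 0.0119). For Nnt the sign was the same at both times and the groups did not overlap at either. For the other 3 the signs were opposite, again without overlap at either time, as for 0.105% of all genes tested. At 7 days Cyp46a1 and Atp8b5 were at low levels, so that their signs there rested on few reads. Different mice were used for the 2 times, and duration and cohort cannot be told apart.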

How the results depend on the processing

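The numbers of shared genes, 132 higher and 150 lower, became 302 and 358 with DESeq2, 303 and 382 with limma-voom, 13 and 1 when a change of over 1.5-fold was tested, 60 and 41 without the duration term, and 54 and 44 when no overlap at both times was required. The mean of the contrasts at the 2 times gave 189 and 238. For genes called at each time on its own, 12 higher and 1 lower, the counts were 34 and 11 with DESeq2, 24 and 9 with limma-voom, and 3 and 0 with the 1.5-fold test. They were 7 higher with at least 10 counts in every library, and 0 lower with no filter and with separate fits of each time. At an unadjusted p under 0.05 at each time, edgeR's contrasts held 126 lower genes of all 13387 (0.941%). The 4 genes with a difference became 117 with DESeq2, 90 with limma-voom, 11 with upper-quartile scaling and 7 without robust estimation. Leaving out 1 mouse gave 67 to 162 higher and 60 to 190 lower shared genes, 8 to 14 higher and 0 to 2 lower at each time, and 0 to 14 differences. DESeq2 called 132 of the 132 higher and 148 of the 150 lower genes, and limma-voom 130 and 148. Of 95 named genes that were called, 53 were called whichever mouse was left out. The sign turned for 3 genes that were not called. Agpat9 (0.04) was at -0.14 with limma-voom, at -0.33 without the duration term and at -0.078 to 0.14 without single mice. Vnn1 (-0.09) was at 0.023 with limma-voom and at -0.19 to 0.019 without single mice, turning without mouse 29, and Wwtr1 (0.01) at -0.036 without the duration term and at -0.016 to 0.059 without single mice. The cause was not tested. No paired analysis was possible because no mouse number was shared between groups. Depth limits genes of a few reads such as Hoxd4 and Cyp2b10, and Gsta1 and Atp8b5 at 7 days.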
